A study of Mus musculus with 3 samples.

Results

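The locus described here holds Cdkn2a and Cdkn2b, 2 neighbouring genes on mouse chromosome 4 that encode inhibitors of the cell cycle. It was taken as the window chr4:88890000-88990000 of the mouse build mm9. Within it, Cdkn2a lies at about 88.92 to 88.941 Mb and Cdkn2b at about 88.952 to 88.957 Mb. Every region of either mark that touches this window was included, without regard to its score. That gave 6 of the 21998 H3K4me3 regions and 6 of the 117512 H3K27me3 regions, or 12 of 139510 regions in all.

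The regions came from chromatin immunoprecipitation and sequencing of cells from the subventricular zone, the wall of the lateral ventricle where neural stem cells persist in adult mice. The mice were wild-type male C57BL/6, and the cells had been grown as neurospheres, floating cultures in which stem cells and their progeny are mixed. Neither the age nor the number of the animals was stated in the sources used here. The H3K4me3 group and the H3K27me3 group are 1 library each, and an input DNA sample was not analysed here. There is thus no replicate error, and the values below are descriptions of these libraries with no test between conditions. Sequencing depth is unknown, so the absence of a region means only that none is in the deposited list.

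H3K4me3, trimethylation of histone H3 at lysine 4, marks active and poised promoters. H3K27me3, trimethylation at lysine 27, is laid down by Polycomb repressive complex 2, and promoters with both marks are often called bivalent. Cdkn2a has separate first exons that give unrelated proteins. The upstream start gives Arf, which binds Mdm2 and so stabilises p53, and the internal start gives Ink4a, which inhibits the cyclin D kinases Cdk4 and Cdk6. Cdkn2b encodes Ink4b, an inhibitor of the same kinases. Repression of this locus by Polycomb proteins such as Bmi1 is a known requirement for the self-renewal of neural stem cells, and its genes are known to rise in expression as cells age or are kept in culture.

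The promoters of the locus are shown because H3K4me3 regions spaced much as these starts are differ in H3K27me3. Each is the RefSeq window of 300 bases on GRCm38.p6, from 250 before the start to 50 after it, read 5′ to 3′ on the strand of the gene, and capitals mark CG dinucleotides. The internal Cdkn2a start has the window chr4:89282143-89282442 and the upstream start chr4:89294570-89294869, both on the minus strand. The window of Gm12610, a long noncoding RNA (lncRNA) gene that starts on the other strand, is chr4:89294930-89295229. The Cdkn2b window is chr4:89310983-89311282 on the minus strand.
Cdkn2a internal start: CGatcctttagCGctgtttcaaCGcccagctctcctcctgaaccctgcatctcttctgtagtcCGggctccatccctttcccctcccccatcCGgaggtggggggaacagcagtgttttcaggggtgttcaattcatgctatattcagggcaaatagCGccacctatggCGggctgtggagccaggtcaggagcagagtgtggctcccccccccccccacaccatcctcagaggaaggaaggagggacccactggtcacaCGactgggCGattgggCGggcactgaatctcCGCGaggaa
Cdkn2a upstream start: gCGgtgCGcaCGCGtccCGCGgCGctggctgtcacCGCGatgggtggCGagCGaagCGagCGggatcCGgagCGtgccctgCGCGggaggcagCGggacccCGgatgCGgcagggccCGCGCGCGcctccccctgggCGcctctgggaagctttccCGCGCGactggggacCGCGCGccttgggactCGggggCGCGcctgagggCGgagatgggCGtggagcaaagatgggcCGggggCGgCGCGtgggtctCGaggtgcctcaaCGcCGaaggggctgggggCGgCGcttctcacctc
Gm12610: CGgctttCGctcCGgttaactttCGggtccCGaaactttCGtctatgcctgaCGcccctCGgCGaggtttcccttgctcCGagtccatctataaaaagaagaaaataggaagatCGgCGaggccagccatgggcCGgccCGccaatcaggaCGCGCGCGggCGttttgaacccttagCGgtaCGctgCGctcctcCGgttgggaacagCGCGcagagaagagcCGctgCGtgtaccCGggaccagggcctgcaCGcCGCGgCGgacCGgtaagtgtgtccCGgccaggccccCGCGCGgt
Cdkn2b: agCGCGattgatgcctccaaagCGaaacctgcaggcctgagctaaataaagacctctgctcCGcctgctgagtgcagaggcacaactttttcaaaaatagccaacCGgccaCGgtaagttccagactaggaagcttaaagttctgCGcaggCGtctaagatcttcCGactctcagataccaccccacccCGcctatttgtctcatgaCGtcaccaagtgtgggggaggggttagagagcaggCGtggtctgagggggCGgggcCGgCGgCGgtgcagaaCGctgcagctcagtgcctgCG

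These promoters differ in CG content. The upstream Cdkn2a window holds 45 CG dinucleotides, more than 98.1% of the 32851 promoter windows in the table, and 77% of its bases are G or C. The Gm12610 window holds 37, more than 94.4% of windows. The Cdkn2b window holds 18 and the internal Cdkn2a window 12, against a median of 7 over all windows. The internal window is thus the poorest in CG of the 4.

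Short motifs were searched on both strands, and all of them except TATAAA contain CG and so overlap the count above. The GC box GGGCGG occurs 3 times in the upstream Cdkn2a window, 1 time in the internal one, 1 time in that of Cdkn2b and 0 times in that of Gm12610, while 35.7% of all windows hold it. The letters TGACGTCA, the cyclic AMP response element, occur in the Cdkn2b window and in 1.79% of all windows. The letters TTTCCCGC, one form of the E2F site, occur in the upstream Cdkn2a window and in 1.07% of all windows. TATAAA occurs in the Gm12610 window and in 13.6% of all windows. These motifs were chosen with the sequences in view, and a match is not evidence of binding.

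The promoter table is on another build than the regions, so no position was carried from one to the other. Spacing can be set side by side within each build. In the RefSeq table the upstream Cdkn2a start lies 12427 bp from the internal start, and the Cdkn2b start lies 28840 bp from it. Among the mm9 regions, the centre of the widest H3K4me3 region lies 12951 bp above the centre of the region with both marks, and the centre of the last lies 28593 bp above it. The Gm12610 start lies 561 bp from the upstream Cdkn2a start, closer than the width of the widest H3K4me3 region, so one region could span both. In the gene table, Gm12610 stands between Cdkn2a and Cdkn2b in order of start, Mtap and several noncoding genes and pseudogenes lie on the lower side of Cdkn2a, and Dmrta1 is the next protein-coding gene above Cdkn2b.

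H3K27me3 was found on 1 of the 6 H3K4me3 regions of the locus, or 16.7% (95% Clopper-Pearson interval 0.421 to 64.1%, counting error only). Over the whole H3K4me3 list 33.5% of regions touch H3K27me3, which lies inside that interval, so the locus share cannot be set apart from the background. With only the upper 50% of both lists by score, 2 H3K4me3 regions of the locus remained and 0 touched H3K27me3, since the one with both marks is below the top score. The region with both marks lies inside Cdkn2a, at chr4:88926767-88929017. The other 5 H3K4me3 regions, among them those over the upper ends of Cdkn2a and of Cdkn2b, touch no H3K27me3 region. Both genes are transcribed toward lower coordinates, so these upper ends are where they start.

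**Figure D1:**
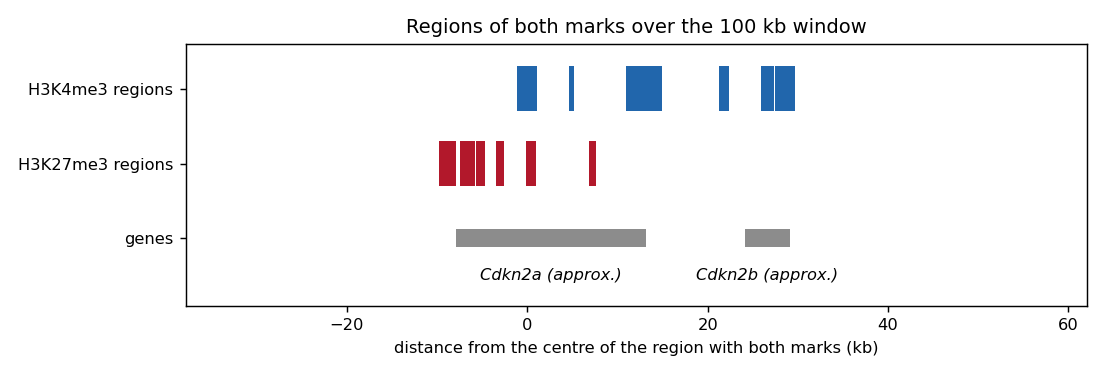
H3K4me3 regions (blue), H3K27me3 regions (red) and the approximate gene spans (grey) over the 100 kb window, in kb from the centre of the region with both marks. All 6 H3K27me3 regions lie left of the widest H3K4me3 region, and none lies over Cdkn2b.

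The region with both marks was 2251 bp wide with a deposited score of 2559. H3K27me3 covered 1128 bp of it, or 50.1%, from 88927702 to 88928829. The H3K27me3 region lay wholly inside, leaving 935 bp of H3K4me3 alone on the lower side and 188 bp on the upper side. Since Cdkn2a runs toward lower coordinates, the longer stretch without H3K27me3 is on the downstream side. This H3K27me3 region had the highest score of the 6 at the locus, 1001, above 93.1% of its list.

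Of the 7363 H3K4me3 regions with both marks, 24.5% had a lower cover than 50.1%, and the median was 84.1%. With H3K27me3 regions merged over gaps of up to 3 kb, the cover of this region was 91.6%, and its rank was computed only for the regions as deposited. In 1703 of them (23.1%) H3K27me3 lay wholly inside, as it does here, and among these the median cover was 53.2%. The region as deposited is near the middle of that class.

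The region over the upper end of Cdkn2a was the widest of the locus. It spans chr4:88938854-88942831, a width of 3978 bp that exceeds 92.4% of H3K4me3 regions. Its score was 3100, the top value at which the list piles up and which 52.6% of H3K4me3 regions reach. The nearest H3K27me3 region ends 3369 bp below it, and the next one above starts 325603 bp away. If the Arf start of Cdkn2a lies under this region, as its place at the upper end of the gene implies, it has no H3K27me3 region on it in this list.

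Cdkn2b had a pair of H3K4me3 regions and no H3K27me3 region. The one over its upper end, chr4:88955373-88957596, was 2224 bp wide and had the top score. A lower-scoring one, chr4:88953853-88955190, lay 182 bp away and was 1338 bp wide with a score of 207, above 21.2% of its list. Together H3K4me3 covered 59.3% of the Cdkn2b span and H3K27me3 covered 0%. The nearest H3K27me3 regions lay 18368 bp below the lower-scoring region and 310838 bp above the one at the upper end.

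The remaining H3K4me3 regions lie between these sites. A narrow one inside Cdkn2a, chr4:88932548-88933095, was 548 bp wide, and only 1.30% of H3K4me3 regions are narrower, although its score of 2061 exceeded 43.5% of the list. One outside both gene spans, chr4:88949143-88950305, was 1163 bp wide and had the lowest score of the 6, at 180.3. Neither touched H3K27me3. The narrow one stood 3718 bp from H3K27me3 on its lower side and 1615 bp on its upper side.

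**Figure D2:**
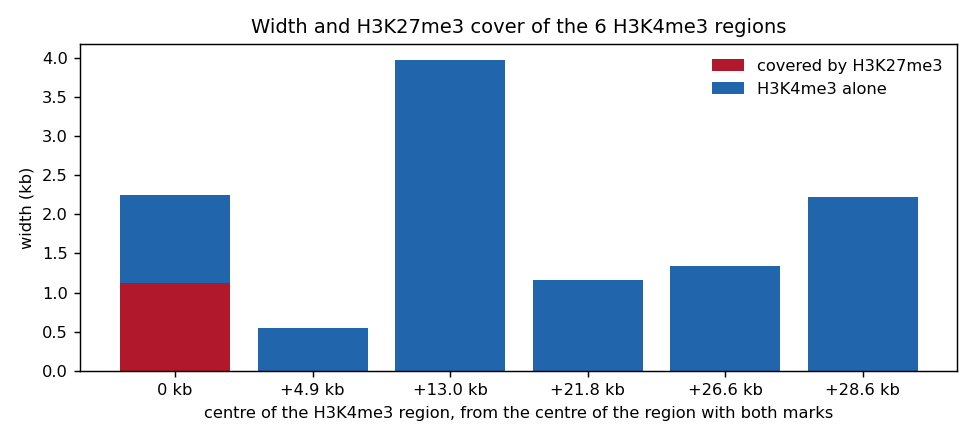
Width in kb of each H3K4me3 region, in order along the chromosome, with the part covered by H3K27me3 in red and the rest in blue. Bars stack lengths and do not show position within the region. Only the first has any cover, 1.128 of 2.251 kb.

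Both top-scoring H3K4me3 regions of the locus lack H3K27me3, and so do 3 of the 4 below the top score. Over the whole list, 23.6% of the 11564 top-scoring H3K4me3 regions and 44.5% of the 10434 others touch H3K27me3.

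H3K27me3 lay over the lower part of Cdkn2a. In the lower 10.5 kb of the Cdkn2a span it covered 43.9%, and in the upper 10.5 kb it covered 7.37%. Between the genes it covered 0%. H3K4me3 covered 21.4% of the lower part of the Cdkn2a span, 25.7% of the upper part and 27.2% of the stretch between the genes. Part of the last value is the widest H3K4me3 region, which reaches past the approximate upper edge of Cdkn2a. The marks thus differed in their spread. Separate H3K4me3 regions lay in both genes and between them, the lowest of them starting at 88926767. The H3K27me3 regions started lower, at 88918069, and the last ended within Cdkn2a, at 88935484.

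The widest H3K27me3 region, chr4:88918069-88920002, was 1934 bp wide with a score of 781. Of its length, 1931 bp lie below the approximate Cdkn2a span, at whose lower edge it ends. Next came chr4:88920464-88922094, 1631 bp wide with a score of 339.9, and chr4:88922159-88923210, 1052 bp wide with a score of 483. These 3 adjoin each other over gaps of 461 and 64 bp, and each scored above at least 81.7% of the H3K27me3 list. The region chr4:88924466-88925256 was 791 bp wide and weak, with a score of 62.8 that exceeds 17.3% of the list. The last, chr4:88934711-88935484, was 774 bp wide with a score of 94.5 and stood 5881 bp above the one inside the H3K4me3 region. Of the 6, only the one inside the H3K4me3 region with both marks touched H3K4me3, against 7.08% of H3K27me3 regions over the whole list.

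Joined over gaps of up to 3 kb, 5 of the 6 H3K27me3 regions form one domain of 10.8 kb, chr4:88918069-88928829. It was longer than 92.4% of the 53714 domains made in this way, and H3K27me3 covered 60.7% of it. Its upper border falls 188 bp inside the upper end of the H3K4me3 region with both marks, and its lower border lies 32.6 kb from the next H3K27me3 region below. With a gap of 1 kb, or with the upper 50% of the list by score, the domain was 5.14 kb long and ended at 88923210. Under either setting it did not reach the H3K4me3 region. At a gap of 3 kb, the link between the block at the lower end of the gene and the region with both marks therefore rests on the weak region. With gaps of up to 10000 bp the domain was 17.4 kb long, from 88918069 to 88935484, and did span the region with both marks.

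The H3K27me3 domains most like it in length, cover and H3K4me3 content were chosen by the summed absolute log2 ratios of these measures. The 5 nearest were chr5:147391802-147402986, chr17:88137935-88148746, chr7:52895598-52906796, chr17:31193631-31204637 and chr4:131621885-131633389. They were 10.8 to 11.5 kb long, were covered by H3K27me3 over 56.9 to 64.6% and each held 1 H3K4me3 region. What genes they hold was not analysed here.

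Above the last H3K27me3 region in Cdkn2a, the H3K27me3 list has no entry for 333 kb, from 88935485 to 89268434. Of the 117481 stretches between H3K27me3 regions, 775 are longer, and on chromosome 4 it is 27 of 9073. The median stretch is 2.35 kb. This one holds 5 H3K4me3 regions, namely the 4 uppermost of the locus and a lone one at chr4:89190951-89191982. Among the 776 stretches of at least this length, 77 hold 5 or more H3K4me3 regions, and the median is 1. Cdkn2b and the upper end of the approximate Cdkn2a span thus lie near the lower edge of a long stretch without H3K27me3 regions.

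**Figure D3:**
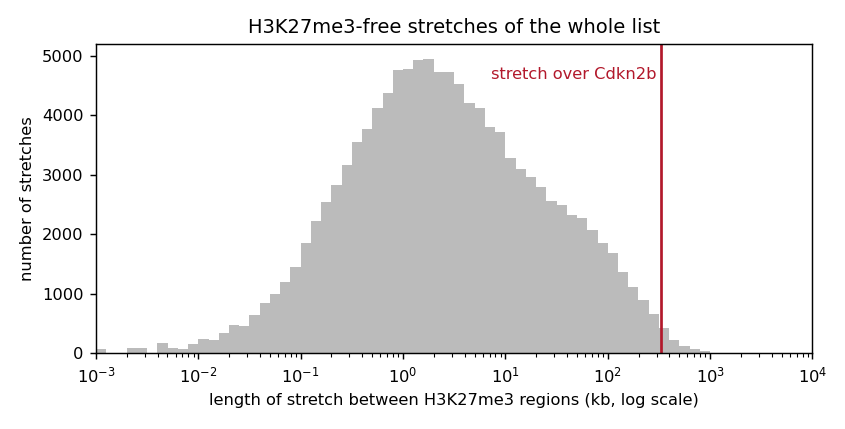
Number of stretches between neighbouring H3K27me3 regions by length in kb on a log scale, over the whole list. The red line marks the 333 kb stretch that begins in Cdkn2a and holds Cdkn2b, which 775 of 117481 exceed.

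The window was rich in H3K4me3 for its size. H3K4me3 covered 11.5% of it, more than in 98.2% of the 26375 other 100 kb tiles of chromosomes 1 to 19 and X, and 98.7% of tiles held fewer than 6 H3K4me3 regions. Among the 11338 tiles with at least 1 H3K4me3 region these ranks were 95.7% and 97.0%. H3K27me3 covered 7.31%, above 81.6% of all tiles and 67.8% of those with at least 1 H3K4me3 region. It was above only 32.0% of the 169 tiles that also held 6 H3K4me3 regions, where the median was 13.3%. Among these 169 tiles, 30 had no H3K4me3 region with H3K27me3, 44 had 1, 39 had 2 and 56 had more. The count at the locus was thus the most frequent one. These ranks are descriptions of the lists and carry no test.

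**Figure D4:**
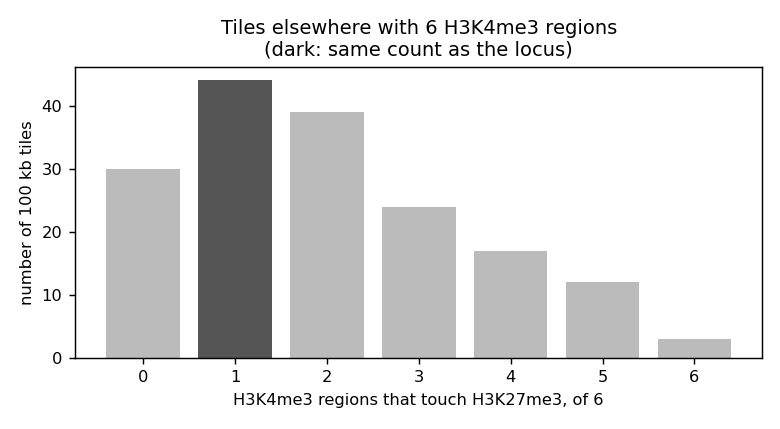
Number of 100 kb tiles outside the locus that hold 6 H3K4me3 regions, by how many of these touch H3K27me3. The dark bar, 44 tiles, is the count found at the Cdkn2a and Cdkn2b locus.

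In the lower flank of 500 kb, 18 of 19 H3K4me3 regions touched H3K27me3 (95% Clopper-Pearson interval 74.0 to 99.9%, counting error only). In the upper flank 1 of 2 did (1.26 to 98.7%), too few to set apart from the locus or the lower flank. The background was 33.5%. Most of the lower count comes from 1 run of 16 closely spaced H3K4me3 regions, chr4:88400482-88452694, all of which touch H3K27me3. The interval for the lower flank takes regions as independent, which those of a run may not be. It may thus be too narrow, and it does not set that flank apart from the locus or the background. They repeat at a median spacing of 2916 bp, are 953 to 2038 bp wide, and 15 of them have the top score, while the highest H3K27me3 score in the run is 235. What made the run was not tested. Without it 3 of 5 flanking regions touched H3K27me3, beside 1 of 6 at the locus, numbers too small to compare.

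By cover, H3K27me3 took 7.11% of the lower flank, 7.31% of the window and 1.84% of the upper flank. Without the run the lower flank had 3.59%, an alternative chosen after the values were seen. In the nearest 250 kb the values were 1.64% below and 0% above. H3K4me3 covered 6.88% of the lower flank, the run included, and 0.563% of the upper one. In the nearest 250 kb H3K4me3 covered 1.28% below and 0.413% above. Apart from the 6 regions of the locus, the H3K27me3 list holds 3 regions of 592 to 1597 bp within 27.4 kb below the window, and the next one below them lies 203 kb from it.

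**Figure D5:**
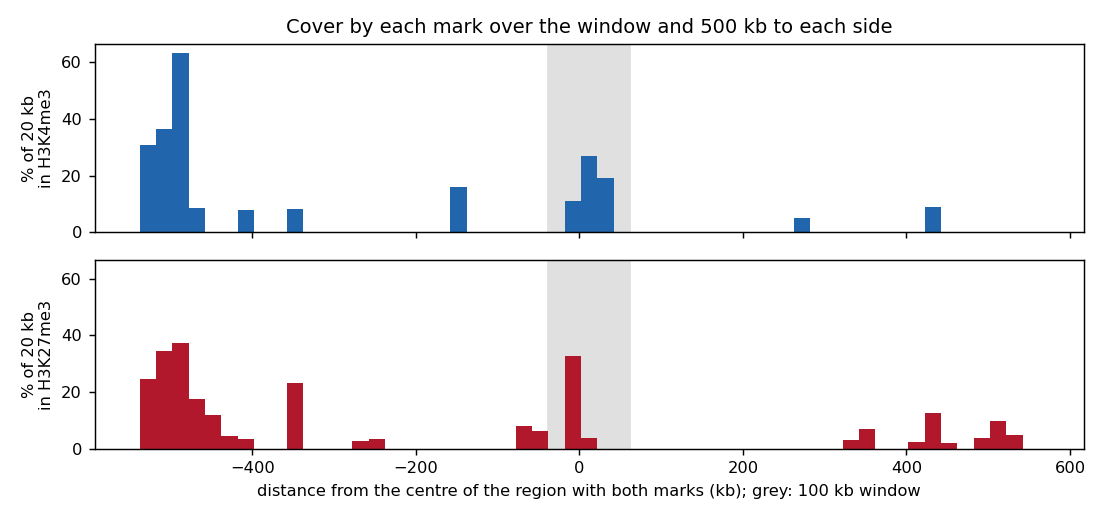
Percent of each 20 kb bin covered by H3K4me3 (upper) and H3K27me3 (lower), in kb from the centre of the region with both marks, with the 100 kb window in grey. Inside the window the highest H3K27me3 bin (32.7%) lies left of the highest H3K4me3 bin (26.9%), which itself has 3.87% H3K27me3. The bins to its right are at 0% H3K27me3 over the next 300 kb.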

How the data were processed

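For each mark the authors deposited positions and a score per region, with names in the style of MACS. The submitters' processing notes name Bowtie 1.1.2 and mm9. Neither the threshold nor any control behind the calls was stated in the sources used here. The lowest scores in the lists were 50.01 for H3K4me3 and 50.0 for H3K27me3. The weak H3K27me3 region of the locus, at 62.8, is near that floor. Scores, as deposited by the authors, are of unknown scale and were ranked only within a list. Starts were changed to count from 1. Overlap meant at least 1 bp. The analysis used Python 3.11.15 with SciPy 1.17.1, pandas 2.3.3 and NumPy 2.4.6, and figures were drawn with matplotlib 3.10.9. Cover was checked on simulated intervals, and the number of overlapping H3K4me3 regions differed from that of bedtools 2.31.1 by 0. The 2 tiles that touch the window were left out of tile ranks.

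The members and the rule for named items (all 12 regions of the locus, and the 5 most alike domains, with 100 bp added to H3K4me3 lengths before ratios) were chosen with earlier results of these data known. Alternatives varied the overlap, the score, the merging gap and the flank length. A list of cell cycle genes was not used because gene positions on mm9 were not used here.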

Additional observations from a re-analysis of the deposited data

How the results depend on the processing

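The 1 of 6 H3K4me3 regions with H3K27me3 was the same with at least 200 bp or 50% of the region shared. It became 0% (0 of 2) when only the upper 50% by score of both lists was used, which keeps only the top-scoring H3K4me3 regions. Cover of the window, 7.31% as reported, was 5.745% in the upper 50% by score and 11.5% with H3K27me3 merged over 3 kb. It was 14.5% over the block from the lower edge of the Cdkn2a span to the upper edge of the Cdkn2b span. That block includes the stretch between the genes. Cover of the region with both marks went from 50.1% to 91.6% when merged, since merging fills the gap below. The other 5 regions stayed at 0% with the score filter and with merging over 3 kb, neither of which could bring H3K27me3 onto them. Merging over 10000 bp gives a domain from 88918069 to 88935484, which spans the narrow H3K4me3 region chr4:88932548-88933095. The longest domain, 10.8 kb, was 5.14 kb with gaps of 1000 bp, 17.4 kb with gaps of 10000 bp and 5.14 kb in the upper 50% by score. Flank cover was 1.64% (lower) and 0% (upper) within 250 kb, 5.445% and 0.559% in the upper 50% by score, and 3.59% in the lower flank without the run of H3K4me3 regions. Of 26 alternatives, 13 moved a value. Any change of domain length counted as moved. Other values counted as moved when outside a 95% interval that took bases or regions as independent. The 5 regions at 0% could not move under the score filter or merging over 3 kb. Their cover was not computed with merging over 10000 bp. The count therefore does not measure how stable the results are. No paired analysis was possible because there is 1 sample of either mark. Depth is unknown, so no detection limit can be given.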

Other observations

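A pair of flanking H3K4me3 regions lay almost wholly under top-scoring H3K27me3. The one at chr4:88583349-88585008 was covered over 100%, with an H3K4me3 score of 2877 and an H3K27me3 score of 3100. The one at chr4:89354433-89356213 was covered over 97.1%, had the top score in both lists, and started and ended within 100 bp of an H3K27me3 region. No region of the Cdkn2a and Cdkn2b locus had such a form. The broad region at chr4:88782343-88785551 in the lower flank, 3209 bp wide with the top score, touched no H3K27me3 and stood alone in a 176 kb stretch without H3K27me3 regions.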
